A study of Mus musculus with 9 samples.

Results

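The miR-34 family was examined in the livers of male C57BL/6 mice, which were 8 weeks old at the start. Every row of the small RNA count table whose name begins with mmu-miR-34a-, mmu-miR-34b- or mmu-miR-34c- was taken, which gave 6 of the 1140 rows, namely the 5p and the 3p arm of each of the 3 hairpins. The control group (n = 3) received normal saline intraperitoneally for 8 weeks. Over the same 8 weeks the TAA group (n = 3) was injected with thioacetamide (TAA), a hepatotoxin that leads to liver fibrosis. Control and TAA mice were killed within days of the final TAA injection, so a recent TAA dose and fibrosis cannot be told apart. The recovery group (n = 3) received the same TAA course and was then left without injections for 8 more weeks, so that these mice were also older when the liver was taken and age cannot be told apart from withdrawal. The 9 libraries came from whole liver of 9 mice. In whole tissue, fewer cells of a type and less of a miRNA per cell cannot be told apart.

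The miR-34 genes are known as direct transcriptional targets of the tumor suppressor p53. Their mature products repress mRNAs that promote cell cycle entry and survival, such as Cdk6, Met and Bcl2, and miR-34a is also known in the liver as a repressor of the deacetylase Sirt1. A hairpin yields a 5p and a 3p arm, of which usually one is kept as the guide strand in the silencing complex, where the bases 2 to 8 from its 5′ end, the seed, pair with the target. p53 and mRNA levels were not analysed here, so the name p53 target is background here.

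The 3 hairpins lie at 2 loci (GRCm38, the build named mm10 in the study). Mir34a (ENSMUSG00000065493.1) spans chromosome 4, 150068454 to 150068555, on the plus strand, and 17 of its bases overlap an exon of Gm37795, which GENCODE M21 lists with the biotype TEC, an unreviewed class of transcript. Mir34b (ENSMUSG00000065492.1, chromosome 9, 51103562 to 51103645) and Mir34c (ENSMUSG00000065587.1, chromosome 9, 51103034 to 51103110) lie on the minus strand, 451 bases apart, and both fall inside an intron of Btg4, which is transcribed from the plus strand. The 34b and 34c hairpins are known to be cut from one primary transcript, whereas Mir34a has a promoter of its own.

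The mature sequences (RefSeq, GRCm38.p6) are shown because the family is defined by its seed, here in capitals. Of the 6 members 5 were matched by name, and mmu-miR-34c-5p was not matched. The 5p arms with the shared seed, together with the related mmu-miR-449a-5p, were as follows.
mmu-miR-34a-5p: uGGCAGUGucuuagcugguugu
mmu-miR-34b-5p: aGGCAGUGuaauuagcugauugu
mmu-miR-449a-5p: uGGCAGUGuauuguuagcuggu
The 3p arms carried other seeds, 1 of them common to 34b and 34c.
mmu-miR-34a-3p: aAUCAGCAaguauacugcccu
mmu-miR-34b-3p: aAUCACUAacuccacugccauc
mmu-miR-34c-3p: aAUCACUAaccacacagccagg

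Compared position by position from the 5′ end without gaps, mmu-miR-34a-5p and mmu-miR-34b-5p differed at 11 of 22 positions, all of them outside the bases 2 to 8. By the same count mmu-miR-34a-5p and mmu-miR-449a-5p differed at 7 of 22. mmu-miR-34b-5p has 23 bases and mmu-miR-34a-5p has 22. An extra base shifts all later positions, so such counts can overstate how far the sequences differ. The 3p arms of 34b and 34c differed at 5 of 22 positions. Among the 1679 mature names for which a sequence was at hand, 4 had the seed of mmu-miR-34a-5p, and 3 of these were listed in the count table.

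The libraries held between 9071847 and 12983378 counts. Levels are given as counts per 1000000 (CPM), scaled with TMM factors, which assume that most miRNAs do not change. Pairs of groups were compared with the edgeR quasi-likelihood test over all rows that passed a filter on low counts, and a miRNA was called differentially expressed (DEM) when the Benjamini-Hochberg FDR was below 0.05 and the level differed at least 2-fold. TMM factors ranged from 0.739 to 0.792 for control, from 1.43 to 1.63 for TAA and from 0.766 to 0.887 for recovery libraries. Under scaling by library totals the median log2 fold change of all tested rows therefore was 1.23 instead of 0.11 for TAA vs control and -0.98 instead of -0.12 for recovery vs TAA. In TAA vs control the up-regulated DEMs then numbered 241 of 245 instead of 105 of 175, and after recovery 4 of 207 instead of 45 of 109, so calls below are on the TMM scale unless library totals are named.

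The family was carried by 2 of its 6 rows, mmu-miR-34a-5p with 5795 counts and mmu-miR-34c-5p with 2827 counts over the 9 libraries. Both were low in the control liver, several-fold higher in the fibrotic liver of the TAA group and low again after withdrawal. The other 4 rows held 3 (mmu-miR-34a-3p), 10 (mmu-miR-34b-5p), 63 (mmu-miR-34b-3p) and 24 counts (mmu-miR-34c-3p). As a share of a library, all 6 rows together took 0.00178% ± 0.000223 (SD, n = 3) in control mice, 0.0244% ± 0.000925 in TAA mice and 0.0025% ± 0.000361 in recovery mice.

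mmu-miR-34a-5p, the guide arm of the 34a locus, was counted 198, 100 and 105 times in control replicates 1 to 3, 1808, 1596 and 1409 times in the TAA replicates, and 171, 182 and 226 times in the recovery replicates. On the scaled level these were 19.3, 13.2 and 14.0 CPM for control, 111, 108 and 94.6 CPM for TAA, and 18.3, 16.7 and 20.7 CPM for recovery mice. All TAA mice lay above all other mice, and the recovery mice overlapped with the control mice, of which replicate 1 was the highest. Among all tested rows, 39.3% had every TAA mouse above every control mouse and 27.4% every TAA mouse below, while 28.9% had every recovery mouse below every TAA mouse and 24.5% every recovery mouse above. By mean CPM the row ranked 183 of 1140 in control, 101 in TAA and 183 in recovery livers.

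mmu-miR-34c-5p, the guide arm of 34c, was counted 61, 61 and 63 times in the control replicates, 851, 570 and 893 times in the TAA replicates, and 85, 128 and 115 times in the recovery replicates. The scaled levels were 5.93, 8.05 and 8.39 CPM for control, 52.5, 38.5 and 59.96 CPM for TAA, and 9.08, 11.8 and 10.5 CPM for recovery mice. Here the 3 groups were separate from each other, with the recovery mice just above the control mice and both far below the TAA mice. By mean CPM this row ranked 225, 132 and 225 of 1140 in the same order.

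**Figure D1:**
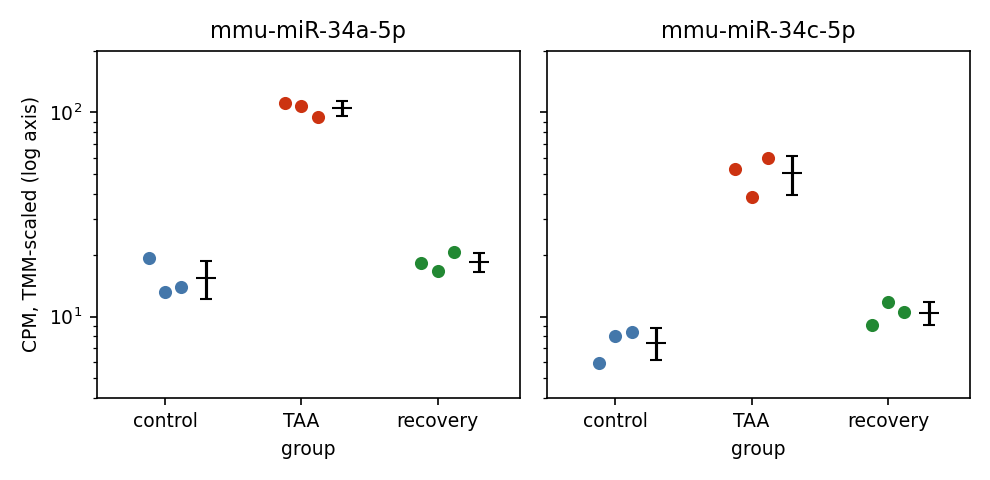
Levels of mmu-miR-34a-5p (left) and mmu-miR-34c-5p (right) in CPM with TMM factors on a log axis, with 1 point per mouse and the mean ± SD of the 3 mice of a group beside the points. Both panels show the TAA mice well above the control and recovery mice, at 94.6 to 111 CPM for mmu-miR-34a-5p and 38.5 to 59.96 CPM for mmu-miR-34c-5p.

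TAA was first compared with control, the comparison that addressed miRNA expression in fibrotic liver soon after the last TAA dose. mmu-miR-34a-5p was up-regulated from 15.5 ± 3.296 to 105 ± 8.87 CPM (SD, n = 3 each), which was 6.76-fold in the means, with a log2 fold change of 2.66 (SE 0.19, edgeR FDR 0.000104). mmu-miR-34c-5p was up-regulated from 7.45 ± 1.33 to 50.3 ± 10.9 CPM, which was 6.75-fold, with a log2 fold change of 2.67 (SE 0.23, edgeR FDR 0.000114). Both of the members that could be tested were thus up-regulated DEMs, while of all 420 tested rows 25% were up-regulated and 16.7% down-regulated DEMs, 41.7% in all. By log2 fold change the members took the ranks 50 (34c-5p) and 51 (34a-5p) from the highest. Under library totals the log2 fold changes were 3.78 for 34a-5p and 3.79 for 34c-5p. The remaining 4 rows did not pass the filter on low counts in this comparison.

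Recovery was then compared with TAA, to see the change after withdrawal. mmu-miR-34a-5p was down-regulated to 18.6 ± 2.01 CPM, 5.63-fold below the TAA mean (log2 fold change -2.52, SE 0.15, edgeR FDR 0.00013). mmu-miR-34c-5p was down-regulated to 10.5 ± 1.34 CPM, 4.81-fold lower (log2 fold change -2.28, SE 0.22, edgeR FDR 0.000429). Down-regulated DEMs made up 14.5% and up-regulated DEMs 10.2% of the 440 rows tested here (24.8% in all), and these members took the ranks 21 and 22 from the lowest. mmu-miR-34b-3p was also tested, with a log2 fold change of -0.94 (SE 0.78), and was not called (edgeR FDR 0.373). It passed the filter here through its TAA counts (11, 12 and 21, against 0, 11 and 5 after recovery), so this test is conditional on a high TAA level. Its log2 fold change moved between -0.34 without recovery replicate 1 and -1.95 without recovery replicate 2, and it was -1.78 under library totals (edgeR FDR 0.0802). This comparison and the previous one share the TAA mice, so a high value of the TAA group enters both in opposite directions.

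Recovery was last compared with control, for what was left after 8 weeks without TAA. For mmu-miR-34a-5p the log2 fold change was 0.22 (SE 0.21, edgeR FDR 0.634), and for mmu-miR-34c-5p it was 0.46 (SE 0.22, edgeR FDR 0.253). Of these 2 members 0 were DEMs with edgeR or with DESeq2, and 0 had an unadjusted p below 0.05 (0.315 and 0.0627 with edgeR), against 11.3% DEMs among all 391 rows tested (10.5% up-regulated and 0.767% down-regulated). The recovery means were 1.2-fold and 1.4-fold the control means. For mmu-miR-34c-5p the groups did not overlap, with 9.08 to 11.8 CPM after recovery against 5.93 to 8.39 CPM in control mice. A higher level in all recovery mice than in all control mice was found in 17.4% of the tested rows, and a lower level in 9.97%. Under library totals the log2 fold change of mmu-miR-34c-5p was 0.65 with an unadjusted edgeR p of 0.0214 and an FDR of 0.106.

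**Figure D2:**
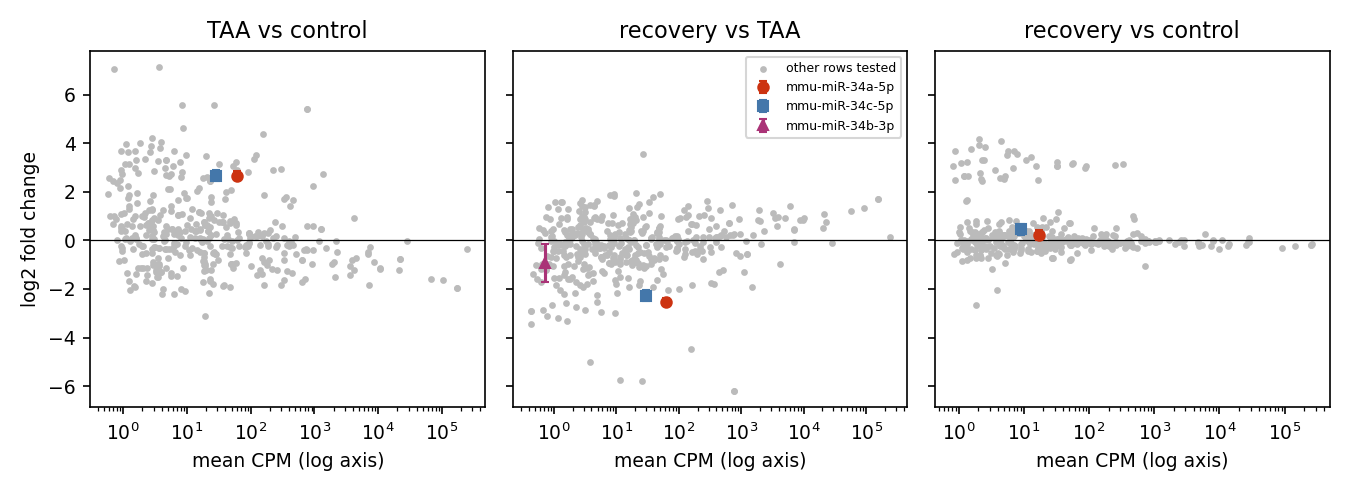
log2 fold change of each tested miRNA against its mean CPM over the samples compared (log axis) for the 3 comparisons, with the members in color (bars, SE) and all other tested rows in gray. mmu-miR-34a-5p and mmu-miR-34c-5p lie at 2.66 and 2.67 in the left panel, at -2.52 and -2.28 in the middle panel, and at 0.22 and 0.46 in the right panel.

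The 34a locus was then compared with the 34b and 34c cluster inside each library, where the ratio of counts does not depend on the scaling. The log2 ratio of mmu-miR-34c-5p to mmu-miR-34a-5p was -1.69, -0.71 and -0.73 in the control replicates, -1.09, -1.48 and -0.66 in the TAA replicates and -1.004, -0.51 and -0.97 in the recovery replicates. mmu-miR-34a-5p thus had the larger count in every library, and the ratios of the 3 groups overlapped. The group means were -1.04 ± 0.56, -1.08 ± 0.41 and -0.83 ± 0.28 (SD, n = 3). The ratio was not shown to differ over the 3 groups (exact permutation test of the F statistic, p = 0.771, adjusted p = 0.771 over 4 ratios, smallest possible p 0.00357). The difference in means was -0.03 for TAA minus control and 0.25 for recovery minus TAA, smaller than the SD within the control group. With 3 mice against 3 the two-sided exact permutation p cannot go below 0.1, and for these pairs it was 1 and 0.4. Leaving out 1 replicate at a time moved the first difference between -0.36, without control replicate 1, and 0.17, without TAA replicate 2, so its sign was not determined.

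**Figure D3:**
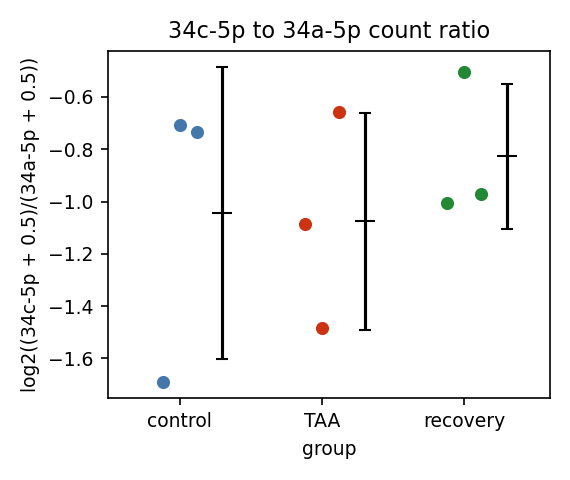
Within-library log2 ratio of the mmu-miR-34c-5p count to the mmu-miR-34a-5p count, each with 0.5 added, with 1 point per mouse and the mean ± SD of each group. All points lie below 0 and the groups overlap, with means of -1.04, -1.08 and -0.83.

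Summed over all rows of a locus, 34b and 34c together made up 34.1% ± 8.13 of the family counts in control, 33.0% ± 6.44 in TAA and 37.1% ± 5.68 in recovery mice, so that the groups differed by less than their SD. Within the cluster nearly all counts came from 34c. The 34b hairpin gave 73 counts from both arms over the 9 libraries, against 2851 from the 34c hairpin.

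The arms were used unequally, and 34b differed in its main arm from 34a and 34c. Pooled over the libraries, the 5p arm held 5795 of 5798 counts of 34a (99.9%, exact 95% interval 99.85 to 99.99%) and 2827 of 2851 counts of 34c (99.2%, 98.75 to 99.5%). For 34b the 3p arm was the larger one, and the 5p arm held 10 of 73 counts (13.7%, 6.77 to 23.8%). The intervals are exact binomial ones and cover counting error only, not the spread between mice. Of the 10 counts of mmu-miR-34b-5p, 8 came from TAA replicate 1, in which the 3p arm had 11. How the authors' counting treats reads that match more than 1 miRNA was not given in the sources used here, which bears on 34b and 34c. Their 3p arms differed at 5 of 22 positions. Their 5p arms could not be compared, since mmu-miR-34c-5p was not matched. Whether read assignment affects the 5p share of 34b was not tested.

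mmu-miR-34b-3p, the larger arm of 34b, was counted 1, 2 and 0 times in the control replicates, 11, 12 and 21 times in the TAA replicates and 0, 11 and 5 times in the recovery replicates. The TAA mice lay above the control mice on the CPM scale, and the recovery mice ranged from 0 to a level within the TAA range. Pooled by group, the TAA level was 8.11 times the control level (44 against 3 counts, exact 95% counting interval 2.6 to 40.8), and the recovery level was 0.536 times the TAA level (16 against 44 counts, interval 0.282 to 0.969). Under library totals the ratios were 16.5 (interval 5.28 to 82.9) and 0.291 (interval 0.153 to 0.526). These intervals leave out the spread between mice, and the edgeR test of recovery vs TAA, which includes it, did not call the row. In a fit without a filter on low counts the log2 fold change in TAA vs control was 2.84 (SE 0.91, edgeR FDR 0.00888). That fit gave far smaller p-values at a similar SE. For mmu-miR-34a-5p the unadjusted edgeR p was 9.92e-32 there (SE 0.23), against 1.65e-06 with the filter (SE 0.19). Its FDR is thus not comparable with those of the filtered fits. mmu-miR-34b-3p passed the filter in 5 other fits, where its edgeR FDR ranged from 0.00972 without TAA replicate 1 to 0.0692 without control replicate 1, so this call depends on the libraries used. Its control counts were at most 2, so it could pass the filter only through other libraries, chiefly those of TAA mice. The FDRs of these 5 fits are thus conditional on a high TAA level.

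mmu-miR-34c-3p, the minor arm of 34c, was counted 3, 0 and 3 times in the control replicates, 6, 1 and 9 times in the TAA replicates and 0, 2 and 0 times in the recovery replicates, so that the groups overlapped. Pooled by group, its TAA level was 1.47 times the control level (16 against 6 counts, exact 95% counting interval 0.548 to 4.6), and under library totals it was 2.995 times that level (interval 1.11 to 9.35). Whether the counting interval includes 1 thus depends on the scaling. The intervals leave out the spread between mice, and the row did not pass the filter for the edgeR test. mmu-miR-34a-3p had 2 counts in TAA replicate 2, 1 count in recovery replicate 3 and 0 in the other libraries, all within the 3 counts that a count of 0 allows.

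**Figure D4:**
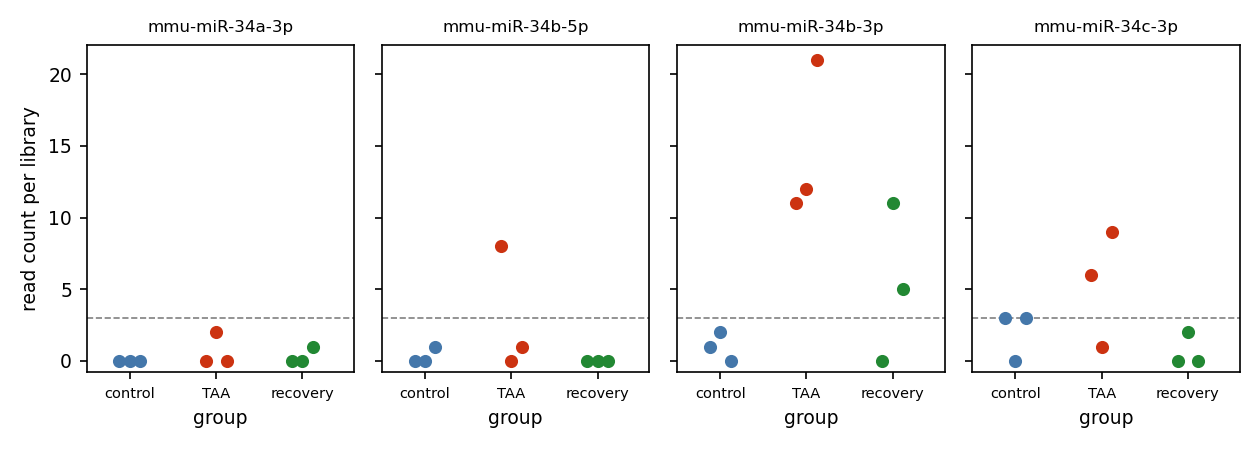
Read counts per library of the 4 members with few counts, with 1 point per mouse and a dashed line at the floor of 3 counts. mmu-miR-34b-3p has 11 to 21 counts in the TAA mice against at most 2 in the control mice, and mmu-miR-34a-3p stays at or below 2 in all libraries.

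The arm ratios over the groups were limited by these low counts. The log2 ratio of mmu-miR-34a-5p to mmu-miR-34a-3p, with 0.5 added to each count, was 8.002 ± 0.55, 10.87 ± 1.35 and 8.06 ± 0.71 for control, TAA and recovery (exact permutation p = 0.0357, adjusted p = 0.143 over 4 ratios). Since the 3p arm was under the floor of 3 counts in every library, this ratio follows the 5p count. The log2 ratio of mmu-miR-34c-5p to mmu-miR-34c-3p was 5.09 ± 1.61, 7.39 ± 1.05 and 6.98 ± 1.15 in the same order (exact permutation p = 0.143, adjusted p = 0.195). For mmu-miR-34b-5p to mmu-miR-34c-5p it was -6.43 ± 0.89, -8.67 ± 1.82 and -7.76 ± 0.30 (exact permutation p = 0.146, adjusted p = 0.195), and without TAA replicate 1 the adjusted p was 0.0143, with a difference of TAA minus control of -3.26. In this ratio too the 34b count was at or under the floor in 8 of 9 libraries.

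The level of the shared seed was summed over rows. By matched sequence the rows were mmu-miR-34a-5p, mmu-miR-34b-5p and mmu-miR-449a-5p, and their sum was 15.7 ± 3.19 CPM for control, 105 ± 9.01 CPM for TAA and 18.6 ± 1.93 CPM for recovery mice. With mmu-miR-34c-5p, added by its family name, the sum was 25.2, 21.2 and 22.9 CPM in the control mice, 165, 146 and 155 CPM in the TAA mice and 27.4, 28.7 and 31.2 CPM in the recovery mice. mmu-miR-449a-5p, a relative known from multiciliated cells, had 0, 0 and 3 counts in the control replicates, 1, 0 and 1 in the TAA replicates and 0, 2 and 0 in the recovery replicates. The shared seed was therefore supplied by mmu-miR-34a-5p and mmu-miR-34c-5p in all groups.

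Other miRNAs described in connection with p53 were examined beside the miR-34 rows. The list held 11 miRNAs, of which 10 were tested in each comparison and mmu-miR-605-5p was not listed in the table. In TAA vs control 2 of 10 were up-regulated DEMs, namely mmu-miR-141-3p (log2 fold change 2.11, edgeR FDR 0.00172) and mmu-miR-200c-3p (2.06, edgeR FDR 0.000997), which are known to hold epithelial cells in their state by repressing Zeb1 and Zeb2. mmu-miR-192-5p and mmu-miR-194-5p, abundant miRNAs of the liver epithelium, were down-regulated DEMs (-1.58, edgeR FDR 1.99e-05, and -1.42, edgeR FDR 0.000114). These shares, 2 of 10 in each direction, are near those of all tested rows (25% up-regulated and 16.7% down-regulated). The median of the list was -0.40, against 0.11 for all tested rows.

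In recovery vs TAA the same 2 miRNAs of the epithelial group were down-regulated (-1.36 and -1.37, edgeR FDR 0.0274 and 0.00935), and mmu-miR-192-5p (1.20), mmu-miR-194-5p (1.12) and mmu-miR-215-5p (1.12) were up-regulated, with a list median of 0.36 against -0.12 for all rows. Of all rows tested there, 10.2% were up-regulated and 14.5% down-regulated DEMs. mmu-miR-15a-5p and mmu-miR-16-5p, which are known to target Bcl2 and cyclins, mmu-miR-107-3p, mmu-miR-143-3p and mmu-miR-145a-5p were not DEMs in either comparison on the TMM scale, with log2 fold changes between -0.88 and 0.68, whereas under library totals mmu-miR-143-3p was an up-regulated DEM in TAA vs control (1.10, edgeR FDR 0.00722). On the TMM scale mmu-miR-107-3p (-0.88, edgeR FDR 0.00161), mmu-miR-15a-5p (-0.85, edgeR FDR 0.00462) and mmu-miR-16-5p (-0.56, edgeR FDR 0.00621) passed the FDR in TAA vs control without reaching 2-fold. In recovery vs control 0 of 10 were DEMs with edgeR and 6 had an unadjusted p below 0.05, against 11.3% DEMs and 90 of 391 rows with such a p among all tested rows. DESeq2 called 1, and under library totals edgeR called 1, mmu-miR-215-5p (1.41, FDR 0.0247), against 44 and 49 of all 391 tested rows. Directions within the list depended on the scale, with 4 up-regulated and 0 down-regulated DEMs under library totals in TAA vs control, then 0 up-regulated and 2 down-regulated in recovery vs TAA. Of all rows tested on that scale, 241 of 420 were up-regulated in the first comparison and 203 of 440 down-regulated in the second, larger shares than in the list. mmu-miR-34a-5p and mmu-miR-34c-5p kept their direction and call on both scales, as did mmu-miR-141-3p and mmu-miR-200c-3p in these comparisons.

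**Figure D5:**
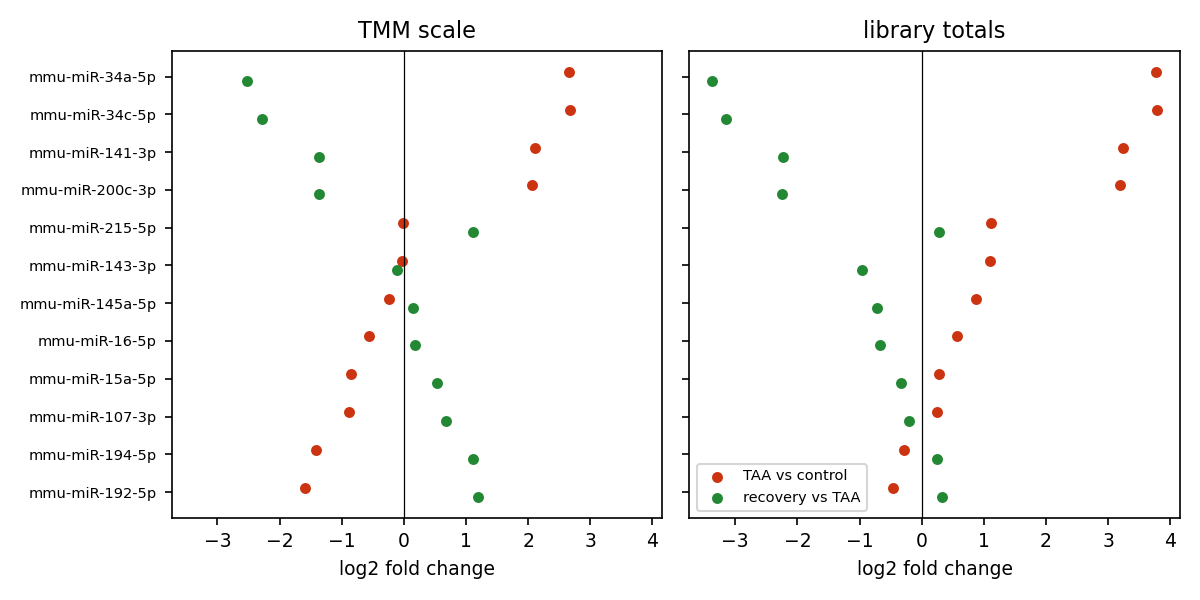
log2 fold changes of mmu-miR-34a-5p, mmu-miR-34c-5p and the 10 tested miRNAs of the p53-linked list in TAA vs control (red) and recovery vs TAA (green), on the TMM scale (left) and under library totals (right). The miR-34 rows lie farthest from 0 on both scales, while mmu-miR-192-5p and mmu-miR-194-5p lie on the opposite side.

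On the TMM scale some markers of liver cell types rose and fell with the miR-34 rows, and others moved the opposite way. The defining miRNAs of hepatocytes, mmu-miR-122-5p and mmu-miR-122-3p, were abundant in all libraries, with a sum of 261929 to 272269 CPM for control, 70157 to 74357 CPM for TAA and 192001 to 315340 CPM for recovery mice. Both were down-regulated DEMs in TAA vs control on the TMM scale, and mmu-miR-122-5p was an up-regulated DEM in recovery vs TAA (-1.96 and then 1.68 on the log2 scale), the opposite direction to the miR-34 rows. Of all tested rows 16.7% were down-regulated in the first comparison and 10.2% up-regulated in the second. Under library totals 0 of 2 were DEMs in these comparisons. mmu-miR-122-5p still passed the edgeR FDR there with changes under 2-fold (-0.84, FDR 8.32e-05, then 0.80, FDR 0.0026), opposite to the miR-34 rows. For mmu-miR-122-3p these were -0.05 (FDR 0.758) and 0.11 (FDR 0.552). The 5 biliary epithelial markers (mmu-miR-200a-3p, mmu-miR-200b-3p, mmu-miR-200c-3p, mmu-miR-141-3p and mmu-miR-429-3p) summed to 582 to 764, 3332 to 5534 and 1240 to 1415 CPM in the control, TAA and recovery groups. On both scales all 5 were up-regulated DEMs in TAA vs control and all 5 were down-regulated DEMs in recovery vs TAA. Of all tested rows 25% and 14.5% were such DEMs on the TMM scale, and 241 of 420 and 203 of 440 under library totals. Against control, 1 of 5 was an up-regulated DEM after recovery (mmu-miR-200a-3p, log2 fold change 1.01, edgeR FDR 0.00026), and under library totals 3 of 5 were, with mmu-miR-200b-3p and mmu-miR-429-3p (1.06 each). Among all rows tested against control, 10.5% were up-regulated DEMs on the TMM scale and 47 of 391 under library totals. Of the 5 biliary epithelial markers, 2 belong to the p53-linked list as well.

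Of the 5 mesenchymal markers, 3 were up-regulated and later down-regulated DEMs (mmu-miR-199a-3p, mmu-miR-199a-5p and mmu-miR-214-3p, known from stellate cells). On the TMM scale 25% of all tested rows were up-regulated in TAA vs control and 14.5% down-regulated in recovery vs TAA. The other mesenchymal markers, mmu-miR-143-3p and mmu-miR-145a-5p, which are also on the p53-linked list, were not DEMs on the TMM scale. Under library totals 4 of 5 mesenchymal markers were up-regulated, with mmu-miR-143-3p, and 3 of 5 down-regulated. The sum of the 5 was 25480 to 31109, 18032 to 39505 and 21869 to 35800 CPM. Most of it came from mmu-miR-143-3p, with means of 27785, 29278 and 27406 CPM, so the sum hides the change of the smaller rows, such as mmu-miR-199a-3p with 213, 713 and 309 CPM. The 4 leukocyte markers summed to 187 to 208, 262 to 310 and 141 to 217 CPM, with 1 of 4 up-regulated in TAA vs control and 1 of 4 down-regulated in recovery vs TAA, in both cases mmu-miR-223-3p. In TAA vs control 1 of 4 is no more than the 25% of all tested rows. With changes under 2-fold in the direction of the miR-34 rows, mmu-miR-150-5p passed the edgeR FDR in both comparisons (0.74, FDR 0.00697, then -0.97, FDR 0.00487). mmu-miR-142a-3p passed it only in the first (0.65, FDR 0.0335, then -0.75, FDR 0.123). mmu-miR-142a-5p passed it in neither (0.30, FDR 0.0704, then -0.46, FDR 0.133). Under library totals 4 of 4 leukocyte markers were up-regulated and then 4 of 4 down-regulated, where 241 of 420 and 203 of 440 of all rows were. The 2 endothelial markers, with 8477 to 8951, 5700 to 6895 and 8347 to 9122 CPM, included 0 DEMs with edgeR or DESeq2. In both comparisons both passed the edgeR FDR (0.00107 to 0.0263) with changes under 2-fold, in the opposite direction to the miR-34 rows (-0.55 and -0.81, then 0.45 and 0.73). An unadjusted edgeR p below 0.05 was found for 2 of 2, against 265 of 420 and then 213 of 440 of all tested rows. Under library totals the log2 fold changes of the endothelial markers were 0.58 and 0.31, then -0.42 and -0.14, the direction of the miR-34 rows, with 0 DEMs. Of the 2 multiciliated markers mmu-miR-449a-5p was at 0 to 3 counts and mmu-miR-449c-5p was not listed. The part of these cell types in the level of the miR-34 rows was not tested.

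The rows with the most similar pattern were ranked by Pearson's r of log2(CPM + 1) over the 9 libraries among the 226 rows with a mean of at least 10 CPM. For mmu-miR-34a-5p they were mmu-miR-218-5p (r = 0.98), mmu-miR-214-3p (0.977), mmu-miR-183-5p (0.969), mmu-miR-99b-5p (0.962) and mmu-miR-674-3p (0.961). For mmu-miR-34c-5p they were mmu-miR-146b-5p (r = 0.987), mmu-miR-214-3p (0.979), mmu-miR-214-5p (0.977), mmu-miR-132-5p (0.976) and mmu-miR-199a-3p (0.969). mmu-miR-34a-5p and mmu-miR-34c-5p correlated with r = 0.958, so that 34c-5p was number 8 for 34a-5p and 34a-5p was number 13 for 34c-5p. All these values are descriptions, since the points share the 3 groups and the scaling of each library.

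The similar rows differed in size of change. mmu-miR-218-5p went from a mean of 13.2 CPM in control to 299 CPM in TAA and 13.7 CPM in recovery mice, a wider span than that of mmu-miR-34a-5p. mmu-miR-99b-5p went from 713 to 1157 and back to 755 CPM, a narrower one. mmu-miR-146b-5p, a miRNA known to be induced by inflammatory signaling, had means of 152, 564 and 164 CPM for control, TAA and recovery, and mmu-miR-214-3p, which was near to both members, had means of 15.6, 66.5 and 21.6 CPM.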

How the data were processed

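Small RNA libraries of 9 mouse livers, 3 per group by their titles, were analysed. Total RNA was extracted with TRIzol, and the authors filtered the reads, mapped them to mm10 and miRBase with Bowtie (version 1.3.0, per the labels), and deposited raw read counts and TPM per mature miRNA. The deposited TPM equalled the count divided by the column total times 1000000 (largest difference 5e-05), with no length term. Columns of no sample numbered 0.

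Counts were tested with edgeR (4.0.16, R 4.3.3) on the 6 samples of each comparison with filterByExpr (minimum count 10), TMM and glmQLFTest, and p-values were adjusted over all tested rows. The SE is the log2 fold change divided by the square root of F. The test was checked on simulated counts. Ratios within a library used a pseudocount of 0.5 and exact permutation tests (scipy 1.17.1). No pair of replicates agreed within sampling noise. Alternatives were library totals, DESeq2 (1.42.0) and its size factors, limma (3.58.1) on log2(TPM + 1) and log2(TPM + 0.1), other filters, a fit of 9 samples, a table lacking mmu-miR-122b-3p and mmu-miR-122-5p, the replicate block and each replicate left out in turn. Total counts of 9071847 to 12983378 set the precision, and counts of 3 or fewer were treated as a floor. Positions are from GENCODE M21 (GRCm38).

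The members, the p53-linked list and the marker lists were chosen with earlier results of these data known, so they are no independent support. Named miRNAs were the members, rows with the seed of a 5p member, these lists and the 5 rows most correlated with each of 34a-5p and 34c-5p. mRNA was not analysed here.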

Additional observations from a re-analysis of the deposited data

How the results depend on the processing

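The log2 fold changes of mmu-miR-34a-5p and mmu-miR-34c-5p kept their direction and call under all alternatives in which they were tested. In TAA vs control they ranged from 2.61 to 3.798 and from 2.62 to 3.79, and in recovery vs TAA from -3.38 to -2.46 and from -3.14 to -2.22, with the largest sizes under library totals or limma on TPM. Without each replicate in turn mmu-miR-34a-5p ranged from 2.56 to 2.87 in TAA vs control and from -2.56 to -2.42 in recovery vs TAA, and mmu-miR-34c-5p from 2.53 to 2.82 and from -2.38 to -2.11. In recovery vs control neither was called under any alternative in which it was tested (0.09 to 0.42 for mmu-miR-34a-5p and 0.31 to 0.65 for mmu-miR-34c-5p, with the lowest values without control replicate 2 and without control replicate 1, adjusted p at least 0.106). There mmu-miR-34c-5p was not tested under the filter of a mean of at least 10 CPM. Members called in TAA vs control numbered 2 or 3, the third being mmu-miR-34b-3p, as without the filter on low counts. For mmu-miR-34b-3p in recovery vs TAA values ranged from -2.06 with limma on log2(TPM + 0.1) (adjusted p 0.0559) to -0.34 without recovery replicate 1, and limma on log2(TPM + 1) gave -0.83 with an adjusted p of 0.0354, still below a fold change of 2. Without mmu-miR-34a-5p the seed sum differed by 0.0523 CPM between TAA and control, by construction, since it then held only mmu-miR-34b-5p and mmu-miR-449a-5p. The difference was 132 CPM with mmu-miR-34c-5p added to the matched rows, against 89.2 CPM for the matched rows, so mmu-miR-34a-5p was not its only source. The log2 ratio of mmu-miR-34b-5p to mmu-miR-34c-5p differed by -3.26 to -1.50 between TAA and control when 1 replicate was left out, and passed the threshold only without TAA replicate 1, which holds 8 of the 10 counts of mmu-miR-34b-5p. The seed sum with mmu-miR-34c-5p was added after seeing the data.

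Mice with the same replicate number are different animals, and deviations of same-numbered samples correlated with r between -0.357 and 0.368, so the numbers were not used as pairs. With the replicate number as a block the log2 fold changes were 2.68 (TAA vs control) and -2.52 (recovery vs TAA) for mmu-miR-34a-5p and 2.66 and -2.27 for mmu-miR-34c-5p, the difference in the 34c-5p to 34a-5p ratio was -0.03, and no call changed. Depth limited mmu-miR-34a-3p, mmu-miR-34b-5p and mmu-miR-34c-3p, which had counts at or under the floor of 3 in most libraries, and mmu-miR-34b-3p in 4 of 9 libraries.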
